A study of Mus musculus with 26 samples.

Results

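Of 1267 heavy-chain clonotypes counted in skin, 315 were IgA clonotypes, and 108 of those 315 were also found in the spleen of the same replicate number. A clonotype was a V gene, a J gene and the nucleotide sequence of the junction, the stretch from the conserved cysteine codon to the conserved tryptophan codon that frames CDR3. Members were chosen by 2 measured values, the IGHA share of skin copies and presence in spleen, so neither is a finding. A skin clonotype was taken as IgA when more than 50% of its copies carried the constant gene IGHA, and as shared when the spleen table of its number held at least 1 copy of the same V gene, J gene and junction. The other 207 are called absent, which means not found at the depth of these spleen tables. Skin replicates 1 to 4 held 49, 95, 82 and 89 IgA clonotypes, of which 8, 36, 26 and 38 were shared and 41, 59, 56 and 51 were absent.

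All mice were WT and under S. epidermidis association (spelled epidermidies in the labels), a treatment with a bacterium of normal skin flora, and no unassociated mice were analysed here. Bulk heavy-chain transcripts of skin, spleen and lymph node were sequenced in 4 biological replicates per tissue with 2 technical libraries each, and the technical libraries were added together. Tissue was taken from the library titles, since the tissue field names ear skin for every library. Skin replicates held 4976 to 7495 copies, spleen replicates 162168 to 1362176, and lymph node replicates 93191 to 228065. Whether skin, spleen and lymph node of 1 number came from 1 mouse is not stated in the labels. Bulk RNA cannot tell a clone of many cells from a clone of few cells with much immunoglobulin RNA, so clone size below is a number of transcript copies.

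IgA is the antibody class that plasma cells secrete at barrier surfaces. Activated B cells switch from IgM to IgA by joining the rearranged V region to the Igha constant gene (chromosome 12, 113256204 to 113260236, GRCm38), and in germinal centres the enzyme AID adds point mutations to the V region, so that mismatches to the germline V gene record past rounds of mutation. The CDR3, built at the joint of V, D and J segments, differs between nearly all newly made B cells, so that an identical junction in a pair of tissues of 1 animal usually marks descendants of 1 B cell.

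The largest shared and the largest absent IgA clonotype of each skin replicate are shown by their junctions, because the comparison turns on whether such a sequence was found again in the spleen. Sequences run 5′ to 3′ on the coding strand as deposited, with the CDR3 in capitals and the flanking cysteine and tryptophan codons in lower case.
Shared, skin 1, IGHV14-3 with IGHJ2: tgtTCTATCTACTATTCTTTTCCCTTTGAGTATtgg
Absent, skin 1, IGHV1-18 with IGHJ4: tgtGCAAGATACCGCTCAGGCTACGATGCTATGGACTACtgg
Shared, skin 2, IGHV1-7 with IGHJ3: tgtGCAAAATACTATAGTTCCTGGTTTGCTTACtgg
Absent, skin 2, IGHV1-18 with IGHJ2: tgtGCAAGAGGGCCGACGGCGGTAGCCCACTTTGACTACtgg
Shared, skin 3, IGHV9-3 with IGHJ1: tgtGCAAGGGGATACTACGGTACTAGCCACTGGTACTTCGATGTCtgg
Absent, skin 3, IGHV1-26 with IGHJ2: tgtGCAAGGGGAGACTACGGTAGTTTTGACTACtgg
Shared, skin 4, IGHV14-1 with IGHJ2: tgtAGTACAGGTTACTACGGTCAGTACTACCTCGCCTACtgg
Absent, skin 4, IGHV2-5 with IGHJ4: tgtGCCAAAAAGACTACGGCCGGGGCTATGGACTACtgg

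The shared clonotype of skin 1 had 696 copies in skin and 658 in spleen, and 7.76% of its aligned V nucleotides in skin mismatched the germline gene Ighv14-3 (chromosome 12, 114059845 to 114060273, GRCm38). The shared clonotype of skin 2 was the largest of the 315, with 1783 skin copies, 2405 spleen copies, 89 lymph node copies and 4.87% mismatches to Ighv1-7 (114538495 to 114538788). That of skin 3 had 726 skin copies and 119 spleen copies with only 0.013% mismatches to Ighv9-3 (114140692 to 114141122), and so was near germline in sequence. That of skin 4 had 693 skin copies, 374 of them IgA, with 20 spleen copies and 3.48% mismatches to Ighv14-1 (113931953 to 113932246).

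The largest absent clonotypes were smaller in each replicate, and 3 of the 4 were near germline. Those of skin 1 to 4 had 219, 171, 41 and 107 skin copies and V mismatches of 0.003%, 9.73%, 0% and 0.118%. Those of skin 1 and 2 were in both technical libraries, and those of skin 3 and 4 in 1 library only. Their V genes were Ighv1-18 (114682632 to 114682925) in skin 1 and 2, Ighv1-26 (114788372 to 114788665) in skin 3 and Ighv2-5 (113685482 to 113685774) in skin 4, all annotated as V segments on chromosome 12. None of these 4 had a shared clonotype in its lineage, as defined below.

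The next largest clonotypes gave a like contrast of size. The second and the third largest shared clonotypes had 464 and 240 skin copies in skin 1, 1324 and 515 in skin 2, 317 and 305 in skin 3, and 336 and 324 in skin 4. The second and the third largest absent clonotypes had 105 and 94 copies in skin 1 (IGHV10-3 and IGHV2-6), 49 and 17 in skin 2 (IGHV1-26 and IGHV1-53), 35 and 22 in skin 3 (IGHV9-3 and IGHV1-18), and 33 and 19 in skin 4 (IGHV1S126 and IGHV9-2). Of these 8 absent clonotypes, IGHV10-3 had 2.77% V mismatches, IGHV2-6 had 7.75% and IGHV1S126 had 8.33%, and the other 5 had at most 0.884%. The IGHV1S126 clonotype had the same junction as the second largest shared clonotype of skin 4, IGHV1-50 with IGHJ2, and differed from it in the V gene assigned.

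Beside the shared fractions, which the rule fixes, stand those found in the spleens of other numbers. In skin 1 to 4 the shared fraction was 16.3% (exact Clopper-Pearson 95% interval 7.32 to 29.7), 37.9% (28.1 to 48.4), 31.7% (21.9 to 42.9) and 42.7% (32.3 to 53.6), a mean of 32.2% ± 11.5 (SD, n = 4). In the spleens of other numbers 0% to 4.08% were found, a mean of 0.725%, which came from 6 clonotypes. The mean own-number value was 31.4 percentage points above the mean of the other numbers, given as a description since presence in the own-number spleen chose the members. No IgA clonotype of 1 skin replicate was found in another skin replicate, and 0 of 315 were found in the positive control, which allows a share of up to 0.952%.

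**Figure D1:**
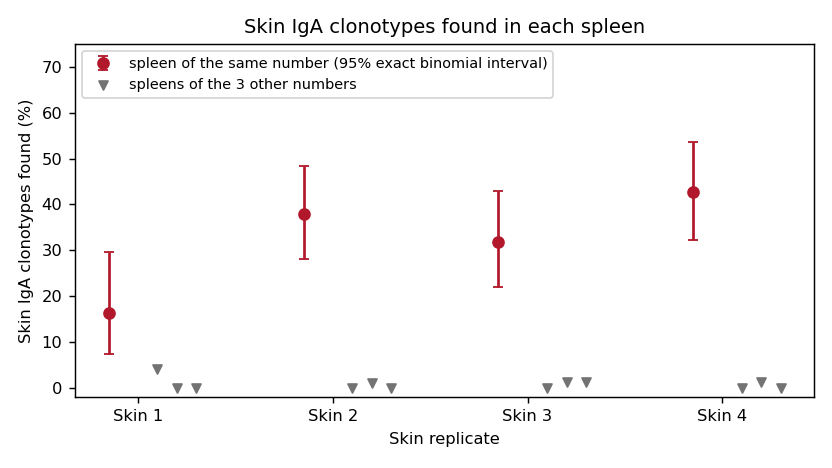
Percent of the IgA clonotypes of each skin replicate found in the spleen of the same number (circles, bars are exact 95% binomial intervals) and in the spleens of the 3 other numbers (triangles, 1 per spleen). Own-number values lie between 16.3% and 42.7%, and those of other numbers at or below 4.08%.

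Spleen depth bears on these fractions, since spleen 1 had 162168 copies and spleen 2 had 1362176. Depth was allowed for by a copy minimum that rose in proportion to the total of each spleen, from 1 copy in spleen 1. No spleen table was subsampled. Under that minimum 16.3%, 15.8%, 23.2% and 31.5% of the IgA clonotypes of skin 1 to 4 were shared, and the own-number excess was 21.0 points. The fractions of skin 1 and skin 2 then lay close together, at 8 of 49 and 15 of 95 clonotypes. Such a minimum drops every clonotype of few copies in the deeper spleens, so it does not give the order of the fractions at equal depth. When at least 2 spleen copies were required, the fractions were 16.3%, 23.2%, 23.2% and 39.3%.

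By isotype within the same skin replicates, the shared fraction of IgA clonotypes can be set beside that of IgM clonotypes, as a description, because isotype and presence in spleen are the values the rule used. Of the IgA clonotypes of skin 1 to 4, 16.3%, 37.9%, 31.7% and 42.7% were shared, against 2.98%, 10.5%, 4.74% and 3.55% of their 235, 172, 190 and 141 IgM clonotypes (means 32.2% ± 11.5 and 5.43% ± 3.43, SD, n = 4). The IgA value was higher in 4 of 4 replicates, by 26.7 points on average. Mean log2 copies were 2.01, 1.53, 1.86 and 2.04 for the IgA clonotypes and 2.05, 1.74, 1.91 and 2.10 for the IgM clonotypes, slightly higher for IgM in each replicate, and no size-matched comparison was made.

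Clone size was higher in the shared than in the absent IgA clonotypes of every skin replicate. The shared 108 held 12830 skin copies and the absent 207 held 1431, so that 90.0% of the copies of skin IgA clonotypes belonged to clonotypes also present in spleen. That fraction was 70.8%, 93.9%, 93.0% and 93.4% in skin 1 to 4. Mean log2 skin copies of shared clonotypes were 5.73, 3.05, 4.49 and 4.09 in skin 1 to 4, against 1.28, 0.60, 0.63 and 0.51 for absent clonotypes. Every shared value lay above every absent value. The difference averaged 3.58 ± 0.839 log2 units (SD, n = 4), higher in 4 of 4 replicates, with an exact two-sided sign-flip p of 0.125 (adjusted p = 0.225 over the 9 measures compared).

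The shared fraction also differed by size class. Of IgA clonotypes seen as a single skin copy, 29 of 194 (14.9%) were shared. The fraction was 19 of 37 (51.4%) at 2 to 9 copies, 30 of 50 (60.0%) at 10 to 99 copies and 30 of 34 (88.2%) at 100 copies or more. Skin 1 departed from this order, with 3 of 5 shared at 2 to 9 copies and 1 of 8 at 10 to 99. Both technical skin libraries held 46 of the 108 shared and 9 of the 207 absent clonotypes, and a single copy was all that stood behind 29 of the shared and 165 of the absent. A small clone is also more easily missed in spleen, and its part in the size relation was not tested. With the copy minimum scaled to spleen depth, where fewer clonotypes were shared, the difference was 4.72 log2 units. With single-copy clonotypes left out of both sets it was 1.89 log2 units (means 5.50 and 3.61), the smallest of the settings tried.

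**Figure D2:**
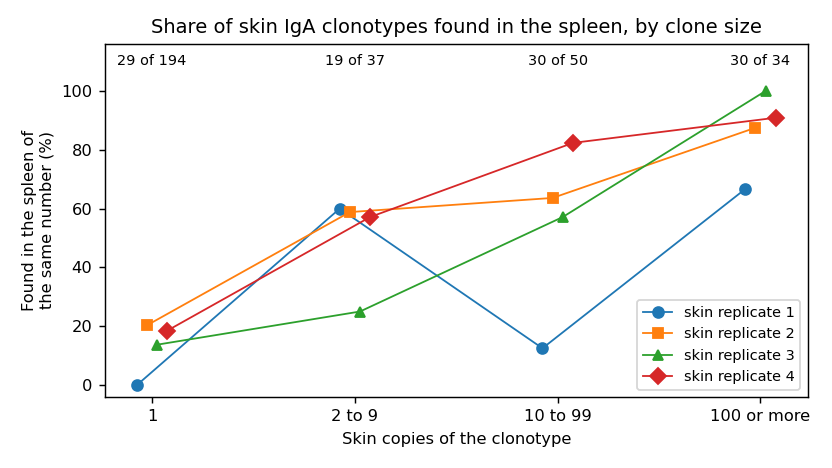
Percent of skin IgA clonotypes found in the spleen of the same number, by number of skin copies, with 1 line per skin replicate and the pooled counts written above each class. The pooled fraction is 14.9% for single copies and 88.2% at 100 copies or more, while skin 1 dips to 12.5% at 10 to 99 copies.

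Mutation of the V segment was higher in shared clonotypes in 3 of 4 replicates, and the groups overlapped. Mismatches covered 4.12%, 4.37%, 3.73% and 4.28% of V nucleotides per shared clonotype in skin 1 to 4, against 2.35%, 4.5%, 2.68% and 3.92% per absent clonotype. The means were 4.13% ± 0.283 and 3.36% ± 1.02 (SD, n = 4), a difference of 0.762 points that did not exceed the spread between replicates (exact two-sided sign-flip p = 0.25, adjusted p = 0.321). The shared values lay close together, whereas the absent values spanned skin 1 at the low end to skin 2 at the high end.

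Clonotypes at or near germline took a smaller share of the shared set in every skin replicate. Clonotypes without any V mismatch made up 0%, 2.78%, 0% and 5.26% of shared clonotypes in skin 1 to 4, against 12.2%, 8.47%, 19.6% and 15.7% of absent clonotypes. These were 3 of 108 and 29 of 207 clonotypes, and no shared value reached the lowest absent value. The difference was -12.0 ± 5.79 points, lower in 4 of 4 replicates (exact two-sided sign-flip p = 0.125, adjusted p = 0.225). This measure asks for 0 mismatches in every copy, so that 1 mismatched copy takes a large clone out of it, and shared clonotypes had more copies. With a limit of under 1% mismatches, a setting added after the data were seen, the shares were 25.0%, 11.1%, 23.1% and 10.5% of shared clonotypes, against 41.5%, 16.9%, 39.3% and 25.5% of absent clonotypes. These were 16 of 108 and 62 of 207 clonotypes, and the values of the sets overlapped. The difference was -13.4 ± 5.06 points (SD, n = 4), lower in 4 of 4 replicates (exact two-sided sign-flip p = 0.125). Among clonotypes in both technical skin libraries the share without mismatch was 0% in both sets, with 9 absent clonotypes left. The measure could show no lower share of shared clonotypes there. Replacement changes, which alter the amino acid, made up 72.7% of the V mismatches of shared clonotypes and 71.8% of those of absent clonotypes.

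**Figure D3:**
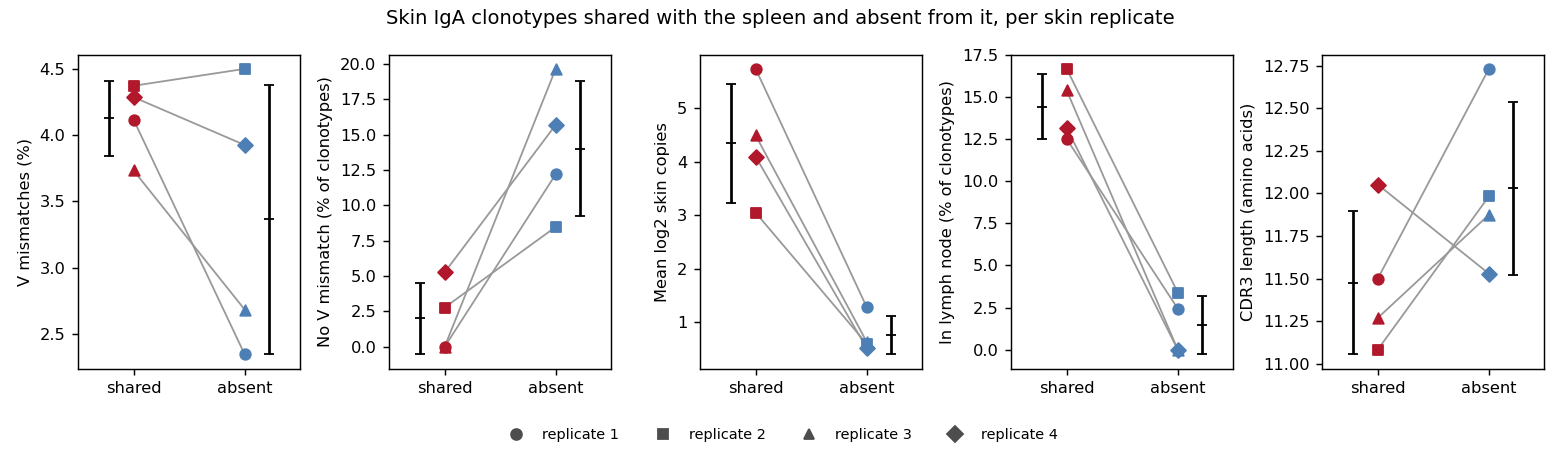
Values of 5 measures for the shared (left) and absent (right) IgA clonotypes of each skin replicate, joined by a line per replicate, with the mean and SD of the 4 replicates beside each column. Clone size and presence in lymph node are higher in shared clonotypes in 4 of 4 replicates, the share without V mismatch is lower in 4 of 4, and V mismatches and CDR3 length overlap between the sets; the vertical axes of V mismatches and CDR3 length do not start at 0.

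Mutation was also compared within classes of clone size. Shared clonotypes of 10 or more copies averaged 3.26%, 3.93%, 3.18% and 4.89% V mismatches in skin 1 to 4, against 2.06%, 2.09%, 0.183% and 2.16% for absent clonotypes of that size. There were 60 shared and 24 absent clonotypes in this class, and 17 of the 24 absent ones, against 11 of the 60 shared, had under 1% mismatches. In the smaller classes the replicates did not all go 1 way. At 2 to 9 copies the means were 5.55%, 3.53%, 4.66% and 4.22% for shared clonotypes of skin 1 to 4. Those for absent clonotypes were 2.60%, 3.73%, 1.51% and 2.41%. Single copies averaged 5.58%, 4.80% and 2.86% in shared clonotypes of skin 2 to 4, against 4.87%, 3.19% and 4.19% in absent ones. Skin 1 had no shared single copy. With single-copy clonotypes left out in both sets, the difference was 1.92 points, higher in 4 of 4 replicates (exact two-sided sign-flip p = 0.125, adjusted p = 0.225). Only 9 absent clonotypes of any size were in both technical skin libraries, against 46 shared. Among these the difference was 0.445 points (3.99% against 3.54%, exact two-sided sign-flip p = 0.625). The absent ones numbered 5, 2, 1 and 1 in skin 1 to 4, and those of skin 3 and 4 had 2 and 3 copies. That value is therefore not a comparison of larger clones. Most of the 24 absent clonotypes of 10 or more copies were in 1 library only, so the contrast among larger clones rests mostly on these.

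**Figure D4:**
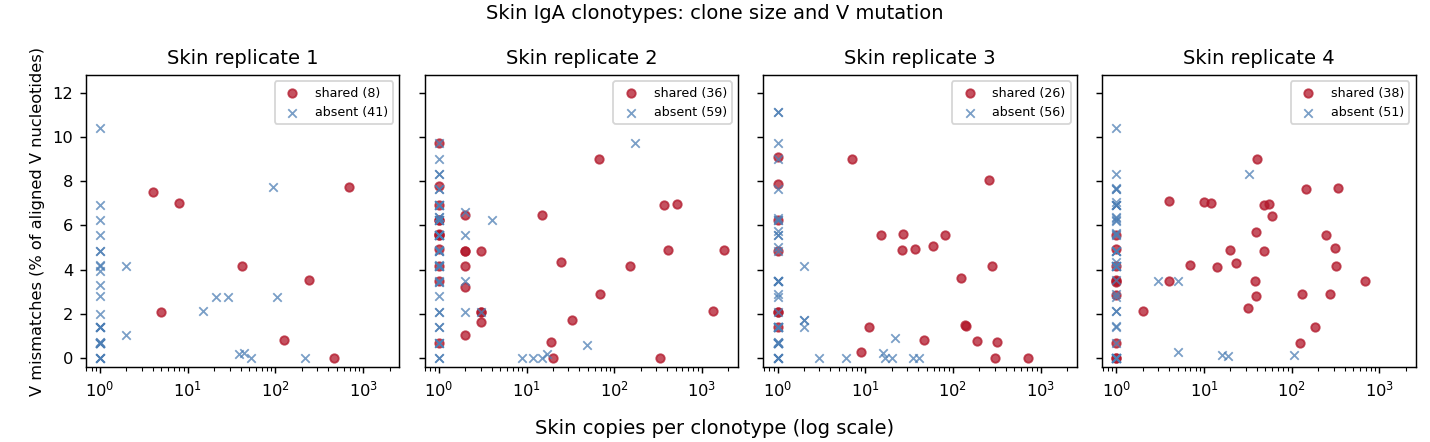
V mismatches (percent of aligned V nucleotides) against skin copies per clonotype on a log scale, 1 panel per skin replicate, with shared clonotypes as circles and absent clonotypes as crosses. Absent clonotypes stack at 1 copy over a wide range of mutation, and those of 10 or more copies lie mostly near 0.

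Large clones near germline were nevertheless found in both tissues. Of the 34 IgA clonotypes with at least 100 skin copies, 10 had under 1% V mismatches, of which 8 were shared and 2 absent. They included the second largest shared clonotype of skin 1, IGHV9-3 with IGHJ3, at 464 skin copies, 9 spleen copies and 0.004% mismatches. The second largest of skin 3, IGHV1-53 with IGHJ4, had 317 skin, 993 spleen and 685 lymph node copies with 0.705% mismatches. The third of skin 3, IGHV9-3 with IGHJ2, had 305 skin and 18 spleen copies with 0.011% mismatches.

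Most absent clonotypes were close relatives of shared ones. Clonotypes of a replicate were joined into lineages where they had V gene, J gene and CDR3 length in common and at least 85% identical CDR3 nucleotides. Of the 207 absent clonotypes, 119 belonged to the lineage of a shared clonotype, 36 had such a shared relative assigned to another V gene, and 52 had neither. The 119 held 152 copies in all and 104 of them were single copies. The 36 had a mean of 5.32% V mismatches and 34 of them were single copies.

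The shared IGHV1-7 clonotype of skin 2 shows this pattern. Its skin table held 9 IgA clonotypes that differed from its junction by 1 base, of which 5 were themselves in the spleen and 4 were not. The 4 absent ones are printed with the differing base in capitals, beside the substitution counted from 1 at the 5′ end of the junction.
T22C: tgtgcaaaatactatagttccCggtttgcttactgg
A6G: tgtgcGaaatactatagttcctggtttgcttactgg
T27C: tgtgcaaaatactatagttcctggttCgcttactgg
C20T: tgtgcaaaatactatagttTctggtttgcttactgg

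These 4 had 4, 2, 1 and 1 skin copies beside 1783 of the printed parent. Of the 5 variants found in spleen, that with A8G stood out with 651 spleen copies and 1 skin copy, while the other 4 had 1 or 2 spleen copies. Over the largest shared clonotypes of skin 2, 3 and 4 together there were 19 such variants, 6 shared and 13 absent, of at most 5 skin copies each. All 19 changes were transitions, between A and G or between C and T. The largest shared clonotype of skin 1 had none. Whether such variants arose in the mouse or during library preparation and sequencing was not tested.

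The 52 absent clonotypes without a shared relative had a mean of 1.52% V mismatches and a median of 0.633%. Of these, 34 had under 1% mismatches, 16 had none, and 27 were single copies. They held 1210 of the 1431 absent copies, so the absent copies lay mainly in clones unrelated to any shared clonotype. A junction within 1 nucleotide was present in their own spleen for 3 of the 52 and in a spleen of another number for 13 of the 52. Of the 119 in the lineage of a shared clonotype, 106 had one in their own spleen and 0 in a spleen of another number. The own-spleen count of the 119 follows largely from the grouping, since they were grouped by likeness to a clonotype of that spleen.

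Mutation was then counted once per lineage, as the value of its largest clonotype in skin. A lineage was taken as shared when any of its clonotypes was shared. With the V gene kept, shared lineages averaged 4.12%, 3.77%, 3.74% and 4.46% V mismatches in skin 1 to 4, against 3.08%, 3.41%, 3.23% and 2.59% for absent lineages. The difference was 0.950 points, higher in 4 of 4 replicates (exact two-sided sign-flip p = 0.125, adjusted p = 0.225). With lineages joined across V genes, a setting added after the data were seen, 72 shared and 36 absent lineages remained. Shared lineages then averaged 4.12%, 3.52%, 3.41% and 4.44%, against 2.53%, 1.48%, 0.137% and 0.909% for absent lineages, and the difference was 2.61 points, higher in 4 of 4 replicates (exact two-sided sign-flip p = 0.125, adjusted p = 0.225). Every shared value lay above every absent value in this setting. The largest clonotype of a lineage was also larger in shared lineages there, with 5.60 against 3.22 mean log2 copies.

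In the spleen the shared clonotypes were also mostly IgA, and their sizes ranged widely. Of their 25323 spleen copies, 92.6% were IGHA, 853 were IgM and 1006 were IgG. IGHA made up most spleen copies of 100 of the 108 clonotypes, and 103 had at least 1 IGHA copy there. Of the 108, 40 had at least 100 spleen copies and 24 had a single one, with a median of 26. Median spleen copies of shared clonotypes were 36.5, 3.5, 35.0 and 75.5 in replicates 1 to 4, against a median of 1 copy over all spleen IgA clonotypes of each replicate. They were 0.105% to 0.241% of the IgA clonotypes of their spleens and held 1.9%, 1.77%, 2.57% and 4.81% of the spleen IgA copies. For 5 of the 24 with a single spleen copy, that copy was not IGHA.

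**Figure D5:**
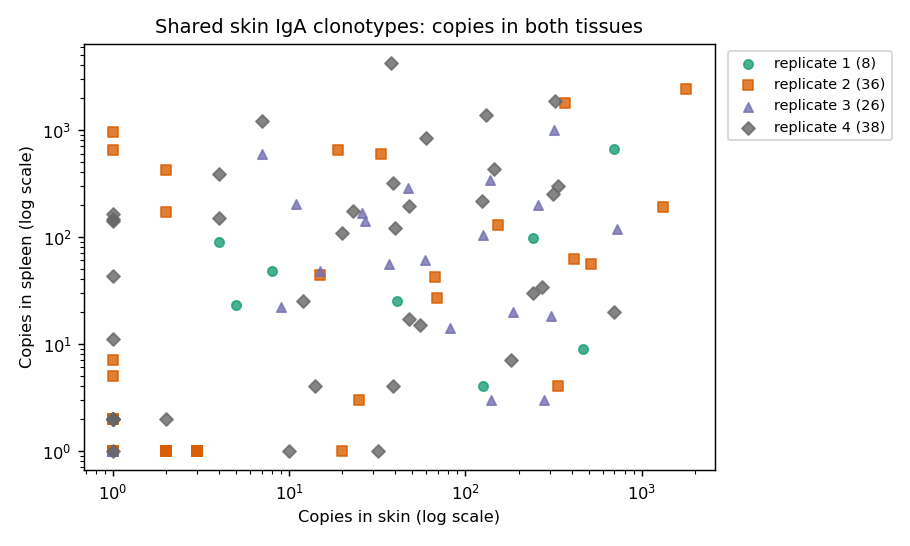
Copies of each of the 108 shared IgA clonotypes in skin (horizontal, log scale) and in the spleen of the same number (vertical, log scale), with 1 symbol per replicate. Large skin clones range from 3 to 2405 spleen copies, and several clonotypes with 1 skin copy had over 100 in spleen.

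Size in skin gave only a loose guide to size in spleen. Spearman's rho of skin and spleen copies over the 108 shared clonotypes was 0.497, and within replicates 1 to 4 it was 0.143, 0.420, 0.527 and 0.415 over 8, 36, 26 and 38 clonotypes that share their libraries. The shared clonotype with the most spleen copies, IGHV1-61 with IGHJ3 in replicate 4, had 4177 there and 38 in skin. Conversely, IGHV5-6 with IGHJ4 in replicate 2 had 1324 copies in skin and 191 in spleen.

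Some shared clonotypes differed in class or mutation between the tissues. IGHV1-42 with IGHJ3 in replicate 4 had 324 skin copies, all IgA, with 4.17% V mismatches. In spleen it had 1842 copies, 1384 of them IgA and 458 IgG, with 1.13% mismatches over both isotypes together. IGHV1-26 with IGHJ4 in replicate 2 had 515 skin copies, all IgA, and in spleen 40 IgA and 15 IgM copies of 56, with mismatches of 6.95% in skin and 6.92% in spleen. IGHV1-50 with IGHJ2 in replicate 4 had 7.67% mismatches in skin and 6.09% in spleen.

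Over all shared clonotypes, mutation in skin and in spleen overlapped. Mean mismatches were 4.12%, 4.37%, 3.73% and 4.28% for the skin copies of replicates 1 to 4, against 4.22%, 3.45%, 2.95% and 4.13% for the spleen copies of the same clonotypes. Copies of all isotypes were counted in both tissues, so isotype was not held constant in this comparison. Skin was higher in 3 of 4 replicates, by 0.437 points (4.13% ± 0.283 against 3.69% ± 0.601, SD, n = 4, exact two-sided sign-flip p = 0.25). Where at least 2 spleen copies were required the difference was 0.148 points.

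A sequence identical at every deposited base was present in both tissues for 60 of the 108. These were 6 of 8, 15 of 36, 14 of 26 and 25 of 38 in replicates 1 to 4. Bases of the V segment outside the deposited sequences were not compared. Those identical sequences carried 87.6% of the skin copies of the shared clonotypes. The most abundant skin sequence was also the most abundant spleen sequence of the clonotype for 38 of them.

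The lymph node held shared clonotypes more often as well. Of the shared clonotypes of skin 1 to 4, 12.5%, 16.7%, 15.4% and 13.2% were found in the lymph node of their number, against 2.44%, 3.39%, 0% and 0% of the absent clonotypes. These were 16 of 108 and 3 of 207 clonotypes. The difference was 13.0 ± 2.19 points (SD, n = 4), higher in 4 of 4 replicates with no overlap, with an exact two-sided sign-flip p of 0.125 (adjusted p = 0.225). Shared clonotypes also had more skin copies (mean log2 4.34 against 0.758), and no size-matched comparison was made. The shared clonotypes with most lymph node copies were IGHV1-53 with IGHJ4 in replicate 3, at 685 copies, and IGHV6-3 with IGHJ4 in replicate 4, at 386 copies beside 131 in skin and 1388 in spleen.

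CDR3 properties differed little between the sets. Mean CDR3 length was 11.5, 11.1, 11.3 and 12.1 amino acids in the shared clonotypes of skin 1 to 4, against 12.7, 12.0, 11.9 and 11.5 in the absent ones. The shared were shorter in 3 of 4 replicates, with a mean difference of -0.553 amino acids (11.5 ± 0.420 against 12.0 ± 0.506, SD, n = 4, exact two-sided sign-flip p = 0.25, adjusted p = 0.321). Tyrosine, an aromatic residue frequent in CDR3, made up 19.1% ± 3.22 of shared and 20.0% ± 3.62 of absent CDR3 residues, a difference of -0.936 points, lower in 4 of 4 replicates (exact two-sided sign-flip p = 0.125, adjusted p = 0.225), and this direction turned with lineages (0.099 points) and with copies as weights (4.99 points). Mean net charge was -0.154 ± 0.199 and -0.096 ± 0.176, and mean hydropathy on the Kyte-Doolittle scale -0.650 ± 0.0997 and -0.722 ± 0.163, for shared and absent clonotypes (exact two-sided sign-flip p = 0.75 and 0.375). Neither kept its direction in every setting tried.

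No V family was higher or lower in the shared clonotypes of all 4 replicates. IGHV1, the largest mouse family, took 58.5% ± 15.0 of shared and 62.6% ± 13.2 of absent clonotypes (SD, n = 4). IGHV14 took 11.5% ± 9.04 and 5.15% ± 6.09, IGHV5 8.06% ± 6.81 and 4.82% ± 6.05, and IGHV9 8.02% ± 4.74 and 10.7% ± 5.57. IGHV2 took 5.10% ± 6.18 and 3.79% ± 4.38, IGHV3 4.44% ± 5.92 and 2.08% ± 2.78, IGHV8 1.39% ± 2.78 and 5.0% ± 6.57, and IGHV10 0.962% ± 1.92 and 3.33% ± 4.60. Of the 8 families, 0 passed an adjusted p of 0.05 in the exact sign-flip test (0% of those tested, 0 at an unadjusted p under 0.05, lowest p = 0.25), a threshold that 4 pairs cannot reach. The nearest to a common direction was IGHV5, higher in the shared of 3 replicates and without any IgA clonotype in skin 1.

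No J gene was higher or lower in the shared clonotypes of all 4 replicates either. IGHJ1 took 14.0% ± 16.1 of shared and 14.2% ± 10.8 of absent clonotypes, IGHJ2 35.2% ± 19.2 and 30.7% ± 19.1, IGHJ3 22.8% ± 7.88 and 22.1% ± 9.20, and IGHJ4 28.0% ± 12.0 and 33.0% ± 16.6 (SD, n = 4). IGHJ4 was lower in the shared of 3 of 4 replicates, with a mean difference of -4.91 points (exact two-sided sign-flip p = 0.25, adjusted p = 1). IGHJ2 differed by 25.9, 13.1, -0.41 and -20.7 points in skin 1 to 4. Of the 4 J genes 0 passed (0% of those tested, 0 at an unadjusted p under 0.05), a threshold that 4 pairs cannot reach.

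The 315 clonotypes used 55 V genes, 44 in the shared and 51 in the absent set, with 40 in both. Most V genes had too few clonotypes to test, and edgeR's filter for low counts kept 0 of the 55. Without that filter, edgeR's quasi-likelihood test with the replicate as a block called 0 of 55 (0%), with a lowest adjusted p of 0.972, and DESeq2 also called 0 of 55. Both had 0 V genes at an unadjusted p under 0.05. With counts this low, 0 calls does not show that V gene use was alike.

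Clonotypes per V gene are therefore given as counts. IGHV1-26 had 7 shared and 20 absent clonotypes, and IGHV1-53 (115158445 to 115158835) had 7 and 14, spread over 4 and 3 replicates with shared members. IGHV9-3 had 5 and 17, of which 3 and 10 came from skin 3. IGHV1-7 had 7 and 8, IGHV1-84 (115980702 to 115981134) 6 and 9, and IGHV5-6 (113625508 to 113625801) 5 and 6, nearly all from skin 2. Those of IGHV1-84 and IGHV5-6 in the shared set fell into 1 lineage each, so their clonotypes are not separate clones.

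IGHV1-18 had the most lopsided count among the V genes with 10 or more clonotypes, with 1 shared and 10 absent, and 1 against 419 skin copies. Its absent clonotypes fell into 6 lineages over 4 replicates. IGHV1-55 (115208137 to 115208527) had 4 and 6, IGHV1-42 (114937154 to 114937544) 3 and 9, and IGHV1-64 (115507587 to 115507977) 3 and 8, of which 1 and 7 came from skin 1. IGHV8-12 (115647945 to 115648245) had 0 and 6, 5 of them from skin 1. All lie on chromosome 12 of GRCm38, and IGHV1-55, IGHV1-64 and IGHV8-12 were chosen after their values were seen.

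The membership rule itself left few cases near its limits. All copies were IGHA for 305 of the 315 clonotypes, 4 had under 60% IGHA, and the lowest member stood at 52.9%. The highest IGHA share among skin clonotypes outside the rule was 7.69%, 12.5%, 45.5% and 40.0% in skin 1 to 4. Skin copies of another isotype occurred in 0%, 2.78%, 0% and 2.63% of shared clonotypes, against 2.44%, 3.39%, 1.79% and 7.84% of absent clonotypes (2 of 108 and 8 of 207), given as a description because it is the complement of the IGHA share that chose the members. That direction turned among clonotypes in both technical libraries, at 3.65 points.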

How the data were processed

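Heavy-chain transcripts of skin, spleen and lymph node were measured in 4 replicates with 2 technical libraries each. Per the labels' protocols, cDNA was primed with molecular identifiers of 10 nucleotides and amplified with V gene primers. The deposited tables list each sequence with a whole-number count, called copies here; whether it counts identifiers or reads is not stated in the file headers. The deposited tables also give V mismatches and the aligned V length (median 144 nucleotides), other measurements than counts. The genome build was mm10, per the submitters' processing notes. The program that assigned genes is not given in the sources used. Gene positions and segment types came from RefSeq's GRCm38 table, which held 54 of the 55 V genes.

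Copies of technical libraries were summed. V mismatches were averaged over the copies of a clonotype, then over clonotypes. Shared and absent sets come from the same skin libraries, so each measure was compared within replicates by an exact two-sided sign-flip test over 16 sign patterns (smallest p = 0.125), with Benjamini-Hochberg adjustment over 9 measures, 8 families (each at least 1% of clonotypes) or 4 J genes. No p is given for values the rule used (presence in the own-number spleen, isotype in skin), although other isotypes in skin count among the 9 measures. A p of 0.25 or 0.125 therefore does not show that the sets were alike. Replicates are numbered biological replicates in the labels, which do not say whether each was 1 animal, or whether a shared number marks tissues of 1 animal. Clonotypes per V gene were planned for edgeR's quasi-likelihood test with TMM scaling, its filter and a replicate block. That filter left 0 V genes, so unfiltered fits are given. Families, J genes, the 6 V genes with most shared and the 6 with most absent clonotypes, and the 3 largest clonotypes of each set were the items to name; others were chosen after their values were seen. Members, lists and tests were chosen with earlier results of these data known. Exact intervals cover counting error only. Copies were not filtered.

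Python 3.11.15, numpy 2.4.6, pandas 2.3.3, scipy 1.17.1, R 4.3.3, edgeR 4.0.16 and DESeq2 1.42.0 were used, and the procedures were tested on simulated data.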

Additional observations from a re-analysis of the deposited data

Results flagged for a closer look

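In 7 of 65 groups of 4 replicate values, 1 replicate lay apart from the other 3 by Dixon's test at the 95% level. Chance alone flags about 1 in 20 groups, and many of the family values rest on 1 or 2 clonotypes.

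Absent clonotypes of skin 1 averaged 1.28 log2 copies, against 0.51 to 0.63 in skin 2 to 4. In skin 1, with 8 shared clonotypes, the share minus that of the absent was 5.18 points for IGHV2, 10.1 points for IGHV3 and -9.76 points for IGHV10, while the other replicates lay within 1 point of 0. IGHV14 took 25.0% of the shared clonotypes of skin 1, against 5.56% to 7.89% in the others. IGHV8 took 5.56% of the shared clonotypes of skin 2 and IGHV10 took 3.85% of those of skin 3, and both were 0% in the other replicates.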

How the results depend on the processing

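No call of the 9 measures, 8 families, 4 J genes or of V genes passed the threshold in any setting tried. The sign-flip test could not pass it in any setting, since its smallest p is 0.125 with 4 replicates and 0.25 with 3. Its lack of calls therefore does not show that the results are stable. Leaving out the replicate block, so that shared and absent sets were permuted as unpaired groups over 70 splits, changed no call (exact permutation, lowest adjusted p = 0.0857, for clone size, lymph node and V mismatch absence). With the replicate block, directions of clone size and presence in lymph node held in all settings. Reversals touched CDR3 and isotype measures only. Net charge (main difference -0.057) was 0.035 with lineages joined across V genes and 0.260 with copies as weights, and ran from -0.232 to 0.064 when 1 replicate was left out, positive without replicate 4. Hydropathy (0.072) was -0.018 among clonotypes in both technical libraries, where other isotypes in skin (-2.51 points) stood at 3.65 points. Tyrosine share was 0.099 points with lineages and 4.99 points with copies as weights. The own-number excess, a description, ran from 27.6 to 36.7 points without 1 replicate each. The V mutation difference (0.762 points) ran from 0.427 without replicate 1 to 1.06 without replicate 2. All 15 V gene settings that kept edgeR's filter, the planned one included, tested 0 V genes and gave no value, while the 7 without it called 0. Clone size has no copy-weighted value, and other isotypes have none among clonotypes of IGHA copies alone.

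Single copies stood behind 194 of the 315 clonotypes, and skin 1 had 8 shared ones, so its shared values are the least precise. Absence from a spleen table is bounded by its depth.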
